A study of Mus musculus with 2 samples.

Results

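Among sorted brain microglia from adult mice, a small number of cells carried transcripts of the classical MHC class II molecules. They were chosen by their own UMI counts: a kept cell was a member where it held UMIs (molecular tags that count each captured transcript once) of at least 2 of the 4 genes Cd74, H2-Aa, H2-Ab1 and H2-Eb1. Of 8409 kept cells, 96 met this rule, 36 of 3304 from WT and 60 of 5105 from the library labelled IRF8KO. Members are called class II cells below, and those with 10 or more summed UMIs of the 4 genes are called high class II cells. The comparison population in each library was the cells with a UMI of none of the 4 genes, 2907 WT and 4635 IRF8KO cells. A further 361 WT cells and 410 IRF8KO cells held UMIs of 1 of the 4 genes and entered neither side. The 4 genes chose the members, so their own values are descriptions only.

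The study compared wild-type microglia with microglia lacking IRF8, a transcription factor of the myeloid lineage. Both libraries came from untreated female C57BL/6 mice aged 3 months, whose microglia were prepared with no enzyme digestion and sorted by flow cytometry for droplet sequencing, 3 mice to a genotype in 1 pool. Each pool is 1 library and 1 sample, so no difference between or within libraries has a replicate check and no test was made. The knockout label comes from the sample title; the genotype entry of that sample reads WT, the allele is not described, and the group is therefore called the library labelled IRF8KO. A kit for full-length transcripts is named in the protocol too, whereas the values have the form of droplet counts.

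The targeted gene was present in both libraries. Irf8 stood at 794 CPM (a gene's UMIs over all UMIs, scaled to a common total) in WT cells and at 646 CPM in the library labelled IRF8KO, where 4076 of 5105 cells held a UMI of it. Which part of the gene the allele removes is not given in the sources used here, so these counts do not check the label. Deposited barcodes numbered 3504 (18706147 UMIs) in WT and 5303 (19998075 UMIs) in the other library. Kept cells had a median of 3204.5 and 2951 UMIs. All 14 listed microglia genes had UMIs in cells with none of the 4 class II genes in both libraries, which shows detection only and does not check identity. Their summed level in these cells was 37661 CPM in WT and 17796 CPM in the library labelled IRF8KO. A cluster of 96 IRF8KO cells, led by genes such as Camp, Ngp and S100a8, was neutrophil-like. It supplied 93 of the 4635 IRF8KO comparison cells and 1 class II cell. The libraries shared 5 barcodes among kept cells, and none of these was a class II cell.

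MHC class II molecules present peptides from engulfed material to CD4+ T cells. H2-Aa and H2-Ab1 encode the chains of I-A, H2-Eb1 encodes a chain of I-E, and Cd74 encodes the invariant chain that guides them to the compartment where H2-DM exchanges the peptide. Dendritic cells, B cells and macrophages of the brain's borders are known for constitutive class II expression, whereas resting microglia carry little, and the coactivator CIITA drives the genes through conserved promoter boxes.

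Promoters of class II genes whose windows held both boxes are shown, a pair of selecting genes (H2-Aa and H2-Eb1) and a pair from the class II pathway list (H2-DMb1 and H2-Oa). The other selecting genes, H2-Ab1 and Cd74, had no window in the promoter set used and were not searched. In RefSeq windows of 300 bases on GRCm38.p6, from 250 bases before the start site to 50 after it, the letters GNAAC (the core of the X box) were searched for 23 to 27 bases before TGATTGG (the Y box), on both strands. Capitals mark these letters.

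H2-Aa, chr17:34287774-34288073, minus strand: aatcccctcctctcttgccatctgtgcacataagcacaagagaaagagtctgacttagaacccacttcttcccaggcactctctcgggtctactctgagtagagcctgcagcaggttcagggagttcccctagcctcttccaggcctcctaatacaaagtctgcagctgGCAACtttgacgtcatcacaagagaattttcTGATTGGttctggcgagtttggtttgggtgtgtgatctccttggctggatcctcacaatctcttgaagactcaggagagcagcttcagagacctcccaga
H2-Eb1, chr17:34305617-34305916, plus strand: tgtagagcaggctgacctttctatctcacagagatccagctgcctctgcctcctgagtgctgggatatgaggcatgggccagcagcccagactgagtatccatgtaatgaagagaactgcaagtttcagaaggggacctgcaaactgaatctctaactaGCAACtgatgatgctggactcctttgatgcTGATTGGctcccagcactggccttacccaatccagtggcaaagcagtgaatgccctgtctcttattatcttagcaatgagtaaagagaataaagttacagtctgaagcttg
H2-DMb1, chr17:34152941-34153240, plus strand: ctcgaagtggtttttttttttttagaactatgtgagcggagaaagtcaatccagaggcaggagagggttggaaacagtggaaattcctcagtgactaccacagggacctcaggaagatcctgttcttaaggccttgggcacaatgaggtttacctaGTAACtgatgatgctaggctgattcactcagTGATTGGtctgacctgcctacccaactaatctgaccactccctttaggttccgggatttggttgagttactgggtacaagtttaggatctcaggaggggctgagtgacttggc
H2-Oa, chr17:34092129-34092428, plus strand: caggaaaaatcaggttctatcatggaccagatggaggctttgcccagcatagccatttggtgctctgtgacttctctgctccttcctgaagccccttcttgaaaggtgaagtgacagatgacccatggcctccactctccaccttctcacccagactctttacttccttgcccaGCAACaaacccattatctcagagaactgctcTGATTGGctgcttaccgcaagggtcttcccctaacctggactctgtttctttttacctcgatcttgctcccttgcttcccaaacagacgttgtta

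The boxes were 26 bases apart in H2-Aa, H2-DMb1 and H2-Oa and 25 in H2-Eb1. H2-Ob also held the pair, 23 bases apart. H2-DMb2 held TGATTGG but not the pair, and both H2-DMa windows held neither TGATTGG nor the pair. GNAAC was not searched for by itself. Of 32851 mouse windows of this length, 2568 (7.82%) held TGATTGG and 45 (0.137%) held the pair. A match describes the letters and no more.

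The share of cells meeting the rule was 1.09% in WT (exact 95% interval 0.764 to 1.51) and 1.18% in IRF8KO cells (0.898 to 1.51). All intervals here cover counting error only. In neutrophil-like cells, which should lack class II, 1 of 96 cells met the rule (1.04%, 0.0264 to 5.67) at a median of 6865.5 UMIs. That cell is itself a high class II cell of the library labelled IRF8KO, and WT had 0 neutrophil-like cells, so the background rests on 1 cell of 1 library. The share also moved with depth. It ran from 0.465% of WT cells with 2000 to 4000 UMIs to 6.25% of those with 16000 or more, and from 0.535% to 22.5% in the same bins of the library labelled IRF8KO. After each cell was thinned to 2000 UMIs, leaving out 285 WT and 499 IRF8KO cells below that depth, 6 of 3019 WT cells (0.199%) and 46 of 4606 IRF8KO cells (0.999%) met the rule.

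Class II RNA per member was higher in the library labelled IRF8KO; genotype and library cannot be told apart. The 60 IRF8KO members held 3373 UMIs of the 4 genes and the 36 WT members held 241. High class II cells numbered 33 in the library labelled IRF8KO (0.646%, 0.445 to 0.907) and 7 in WT (0.212%, 0.0852 to 0.436), beside 1 of 96 neutrophil-like cells (1.04%, 0.0264 to 5.67). These 33 cells held 84.3% of all UMIs of the 4 genes in their library. Their summed class II UMIs had a lowest value of 10, a median of 71 and a highest value of 273. The 7 WT cells held 43, 22, 20, 15, 14, 11 and 10 UMIs, so the groups overlapped up to 43, and 15 IRF8KO cells had 100 or more. At the edge of the threshold, the WT library had 2 more cells with 10 or more UMIs that came from Cd74 alone and did not meet the rule.

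**Figure D1:**
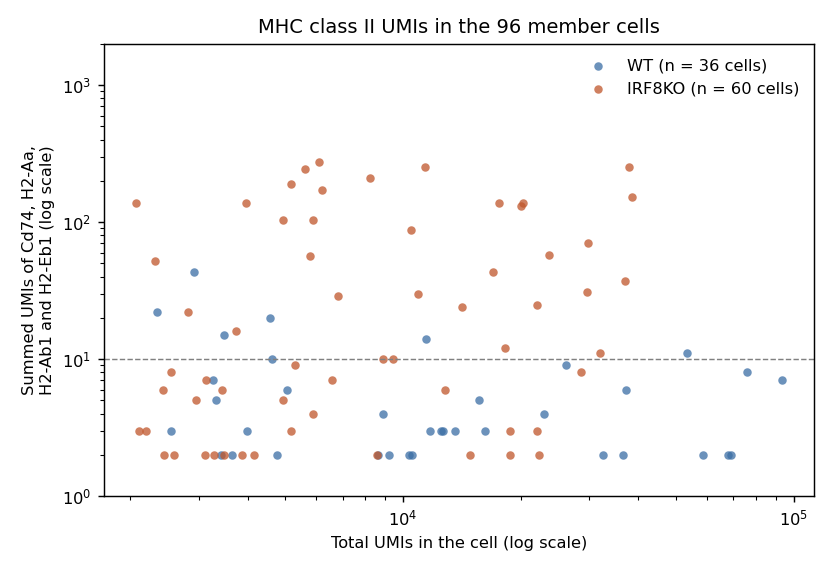
Each point is 1 of the 96 class II cells. The x axis is the cell's total UMIs and the y axis its summed UMIs of the 4 selecting genes, both on log scales; the dashed line marks 10 UMIs. Of the 40 cells at or above the line, 33 are from the library labelled IRF8KO and 7 from WT.

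In the 33 high IRF8KO cells, Cd74 and H2-Ab1 had UMIs in all 33, H2-Aa in 32 and H2-Eb1 in 30. All 4 had UMIs in 30 IRF8KO cells and in 4 WT cells. Across the 33 cells Cd74, the invariant chain, gave 1613 UMIs, H2-Aa 664, H2-Eb1 505 and H2-Ab1 483. Among WT members Cd74 gave 140 UMIs in 35 of 36 cells and H2-Ab1 gave 61 in 33 cells, whereas H2-Aa and H2-Eb1 were seen in 9 and 8 cells. In WT the pair of Cd74 and H2-Ab1 alone made up 23 of the 36 members.

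**Figure D2:**
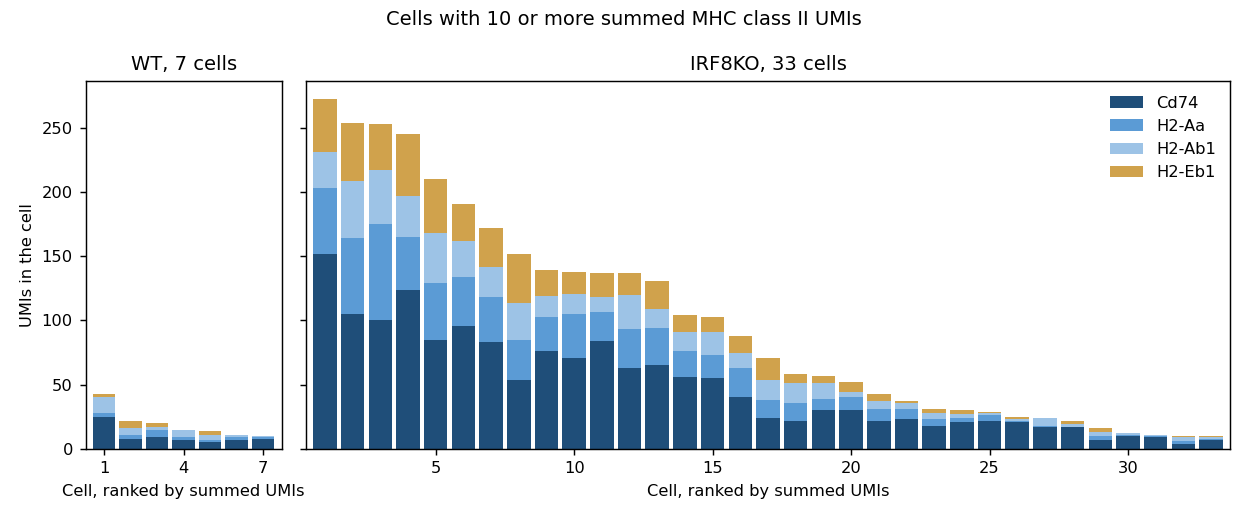
Bars show the UMIs of each of the 4 genes, stacked, in every cell with 10 or more summed UMIs, ranked within its library. The IRF8KO cells run from 273 to 10 UMIs and the WT cells from 43 to 10.

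High class II cells of the library labelled IRF8KO carried Ccr2, Mgl2 and Ahnak, which were nearly absent from the comparison cells. The 33 high cells were deeper, with a median of 10482 UMIs against 2894 in comparison cells. Counts of cells with a UMI, here and below, are not matched for depth unless thinned. Ccr2, the chemokine receptor of circulating monocytes, had a lowest value of 0, a median of 3 and a highest value of 25 UMIs across the 33 cells. It was detected in 28 of 33 cells against 37 of 4635 comparison cells, a log2 ratio of CPM of 6.59 (6.18 to 7.0). Mgl2, a lectin of macrophages and conventional dendritic cells, ranged from 0 to 8 UMIs with a median of 0. It was seen in 15 of 33 cells against 4 of 4635, a log2 ratio of 7.42 (6.30 to 8.73). Ahnak, a large scaffold protein, ranged from 0 to 14 UMIs with a median of 1 and was seen in 23 of 33 cells against 12 comparison cells, a log2 ratio of 6.77 (5.96 to 7.65). After thinning to 2000 UMIs, 45.5% of the 33 cells and 0.313% of 4154 comparison cells held a Ccr2 UMI, and the values were 24.2% and 0.0241% for both Mgl2 and Ahnak.

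These 3 genes, grouped after their values were seen, overlapped in the high class II cells. Each was seen in many of the 33 cells and in few comparison cells, which by itself makes overlap common in the former and rare in the latter. Whether the genes occurred together more often than that was not tested. At least 2 of them had UMIs in 26 of the 33 high class II cells, at least 1 in 31 and all 3 in 9. Among comparison cells of the same library, 53 of 4635 held at least 1 and 0 held 2 or more. Of the 410 IRF8KO cells with UMIs of 1 class II gene, 3 held 2 or more. Among cells with 8000 or more UMIs, 17 of 20 high class II cells and 0 of 228 comparison cells held 2 or more. Seen from the genes, 71.1% of all Ccr2 UMIs, 78.9% of Mgl2 UMIs and 70.2% of Ahnak UMIs in that library lay in its 60 class II cells, which held 3.50% of all UMIs.

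Across all genes with at least 10 CPM in that library, leaving out the selecting genes, 125 of 8184 (1.53%) were at least 2-fold higher in the 33 cells and 257 (3.14%) at least 2-fold lower. For all 60 class II cells the numbers were 77 (0.941%) and 144 (1.76%). Lists of marker genes are read against these shares. The minimum was taken over all kept cells, class II cells included, so a gene high in these cells can pass it through them. This favours calls of higher genes, here and in the lists.

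Of the class II pathway list, 2 of 8 genes at the 10 CPM minimum were at least 2-fold higher in the 33 cells. H2-DMa, a chain of the peptide exchange factor H2-DM, was seen in 24 of 33 cells (0 to 6 UMIs, median 2) against 149 of 4635, a log2 ratio of 3.95 (3.52 to 4.37). It stood at 13.6 CPM over all kept cells but at 9.31 CPM in comparison cells, below the minimum. Its partner H2-DMb1 was at 1.44 (1.05 to 1.82); it has a near-identical neighbour in H2-DMb2, so the split of reads between them is uncertain. Ciita, the coactivator, is a list gene outside the naming rule and gave 7 UMIs in 6 of the 33 cells against 2 UMIs in the comparison cells. H2-Oa, whose product restrains H2-DM and whose promoter window holds the letters of both boxes, was at -0.34 (-1.48 to 0.60), and at 0.04 (-0.76 to 0.73) over all 60 members. The costimulatory gene Cd86 was at 0.41 (0.08 to 0.73) over all 60 members. Among class I genes, H2-D1 was at 0.78 (0.65 to 0.91) and H2-K1 at 0.68 (0.52 to 0.83), and 0 of 9 at the minimum reached 2-fold; related class I genes can share reads.

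Of the monocyte list, 1 of 6 genes at the minimum was at least 2-fold higher in the 33 cells, and this was Ccr2. Ccr2 stood at 15.3 CPM over all kept cells and 4.12 CPM in comparison cells. It passed the minimum only through the class II cells, so its count here carries no weight for the list. Chil3 was at -0.83 (-1.08 to -0.59), Hp at -1.50 and Plac8 at -1.92, but these genes are abundant in the neutrophil-like comparison cells. The summed monocyte list was at 0.29 (0.15 to 0.42) in the 33 cells. Over all 60 members it was at -0.01 (-0.13 to 0.11). That value became 1.66 without neutrophil-like cells and -1.07 with comparison cells weighted to the depth of members. Ly6c2, a defining marker of classical monocytes, had UMIs in 2 of the 33 cells, and Vcan had none. Ms4a4c, another monocyte gene, was at 3.91 (3.24 to 4.56) over all 60 members, with UMIs in 8 cells.

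Of the border macrophage list, 1 of 10 genes at the minimum was at least 2-fold higher. F13a1, a coagulation factor subunit made by macrophages, was seen in 17 of 33 cells (0 to 14 UMIs, median 1) against 112 of 4635, a log2 ratio of 3.49 (3.02 to 3.93). The scavenger receptor Cd163, below the minimum, was seen in 16 of 33 cells against 102, at 3.66 (3.09 to 4.20). Dab2, an endocytic adaptor, was at 0.62 (0.47 to 0.77) and Cd38 at 0.92 (0.03 to 1.69). Other border markers were widely detected in the comparison cells too. Mrc1, the mannose receptor, was at 0.53 (0.37 to 0.69) and Ms4a7 at -0.01 (-0.19 to 0.16), with UMIs in 2925 and 2555 of 4635 comparison cells. Lyve1, Cd209f and Ccl8 had no UMI in either. The summed list was at 0.22 (0.16 to 0.28).

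The summed dendritic cell list was at 0.395 (0.18 to 0.61) in the 33 cells and at 0.33 (0.14 to 0.51) in all 60 members, and Mgl2 supplied 39 of its 185 UMIs in the 33 cells. Of its 3 genes at the minimum, 0 were at least 2-fold higher and 1 was lower. Fscn1 was at -0.36 (-0.70 to -0.05), Il4i1 at -1.01 (-3.30 to 0.56) and Wdfy4, needed for cross-presentation, at 0.51 (-0.11 to 1.08). Of the defining markers, Xcr1, Clec9a and Ccr7 were at 0 UMIs in the 33 cells, Flt3 and Zbtb46 had UMIs in 3 cells each, and Cd209a in 2. Most of the list's members lay below the minimum, and 7 of 18 were at 0 in the 33 cells. Plasmacytoid dendritic cell genes were at 0 in 5 of 6 cases; Cox6a2, the remaining one, was at -0.96 (-1.81 to -0.24).

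Of the 13 B cell list genes, 8 were at 0 in the 33 cells. Cd79a, Ms4a1, Igkc and Pax5 had 0 UMIs there and in the 36 WT members. Cd79b, a chain of the B cell receptor, gave 4 UMIs in 4 of the 33 cells, at 0.88 (-1.03 to 2.30), and 44 UMIs in 17 of the 36 WT members. The summed list was at 0.26 (-0.06 to 0.58) in the 33 cells. Ighm, the immunoglobulin heavy chain gene, was the 1 of 3 genes at the minimum that was at least 2-fold higher, at 1.55 (0.97 to 2.09), with UMIs in 18 of 33 cells against 301 comparison cells. Bank1 was at -0.24 (-0.85 to 0.31) and Ralgps2 at -0.16 (-0.81 to 0.43). Genes of T and NK cells had 0 UMIs in all 96 members.

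**Figure D3:**
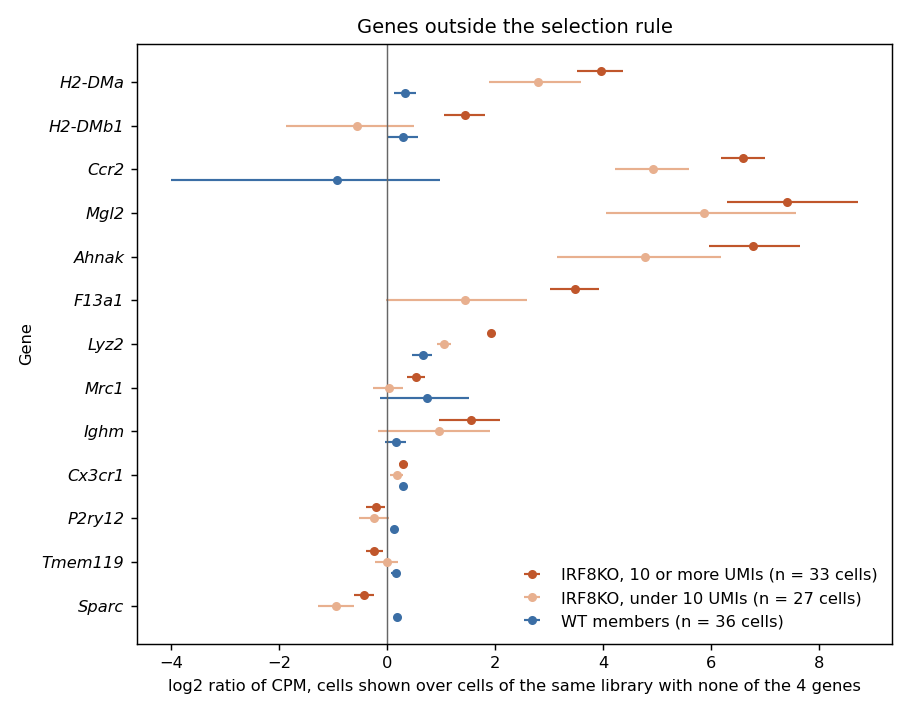
Points are log2 ratios of CPM over cells of the same library with none of the 4 genes, for genes outside the selection rule, and bars are exact 95% intervals for counting error. A point is left out where either side has no UMI. Ccr2, Mgl2 and Ahnak lie at 6.59, 7.42 and 6.77 in the high IRF8KO cells. The WT points cover all 36 members, 29 of them with under 10 class II UMIs, and are not a like threshold. Ccr2 in these WT members lies at -0.93 (-4.00 to 0.98), from 2 UMIs.

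Microglia genes were present in most high class II cells of the library labelled IRF8KO. None of 13 genes at the minimum differed 2-fold, and the summed list was at -0.11 (-0.15 to -0.08). Over all 60 members it was also at -0.11 (-0.14 to -0.08), but at 0.00065 with comparison cells weighted to the depth of the members and at 0.013 within the cluster that held most of them. Cx3cr1, the fractalkine receptor, had UMIs in all 33 cells (1 to 149, median 23) and was at 0.30 (0.22 to 0.38). Olfml3 was at -0.32 (-0.45 to -0.19) and Sparc at -0.43 (-0.61 to -0.24). P2ry12, the purinergic receptor of homeostatic microglia, was at -0.21 (-0.40 to -0.04), with UMIs in 26 of 33 cells. In 21 of the 33 cells Ccr2 and P2ry12 were found together. Sall1, the transcription factor of microglial identity, was at 0 in all 60 IRF8KO members and had 45 UMIs in the 4635 comparison cells, so its level was too low to compare.

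The sums hide a spread between cells. After thinning, the microglia list took a median of 1.30% of a cell's UMIs in the 33 cells (0.25 to 2.55) and 1.80% in the comparison cells. In 8 of the 33 cells the share lay below 0.900%, the 5th percentile of comparison cells. The cell with most class II RNA, 273 of its 6092 UMIs, held 25 Ccr2 and 154 Lyz2 UMIs and none of P2ry12 or Tmem119. In all, 4 of the 33 cells had UMIs of neither P2ry12 nor Tmem119, and all 4 held Ccr2.

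**Figure D4:**
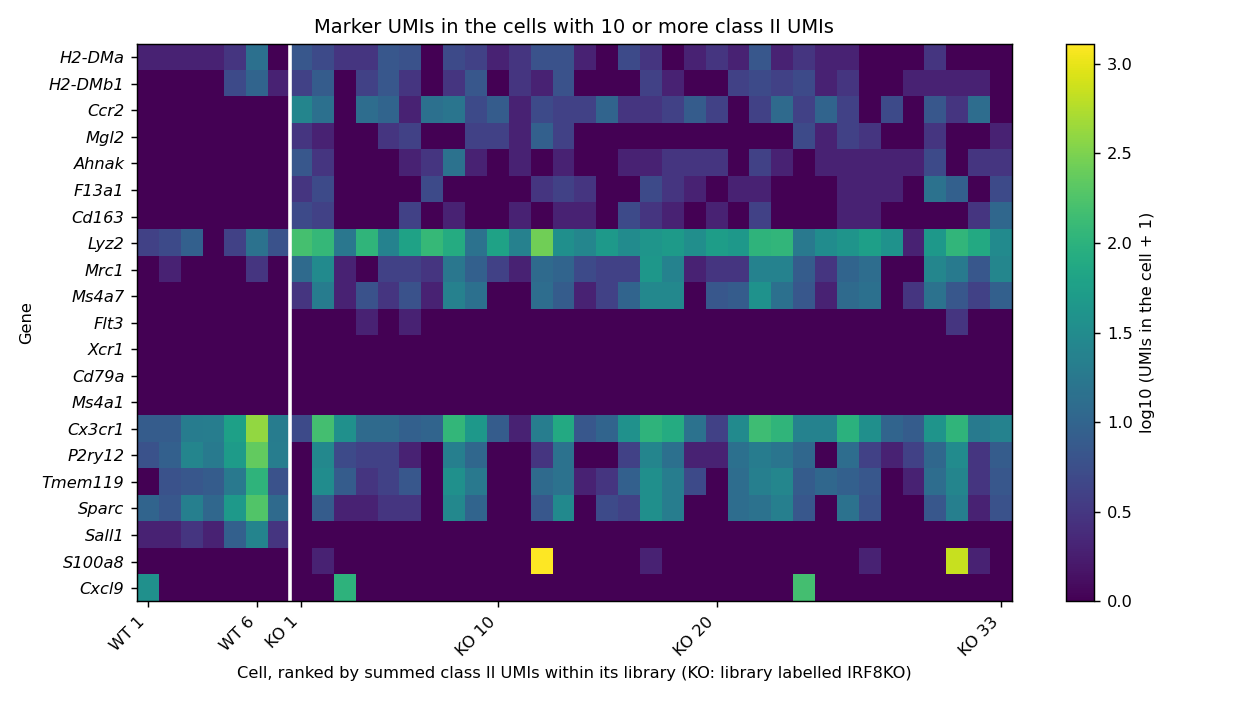
Each column is 1 of the 40 cells with 10 or more class II UMIs, 7 WT cells left of the white line and 33 IRF8KO cells right of it, and each row is a gene; colour is log10 of UMIs + 1. Ccr2 is found in 28 IRF8KO columns and 0 WT columns, and Sall1 in all 7 WT columns and 0 IRF8KO columns.

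Lyz2, the macrophage and granulocyte lysozyme, was the most abundant of the genes that set the high cells apart. It ranged from 1 to 275 UMIs with a median of 45 and was found in all 33 cells, against 2507 of 4635 comparison cells, a log2 ratio of 1.93 (1.86 to 1.99). Of the disease-associated microglia list, which holds Lyz2, 2 of 13 genes at the minimum were at least 2-fold higher; the other was Lgals3, which encodes galectin 3, at 1.62 (1.06 to 2.12). Lpl was at -0.83 (-2.29 to 0.30) in the 33 cells and at 1.17 (0.63 to 1.67) over all 60 members. Of the type I interferon list 3 of 13 were higher, and Ifi27l2a was at 1.64 (1.28 to 1.98) in 18 cells, while Rsad2 at 1.78 and Ifit2 at 1.21 had 92.1% and 82.4% of their UMIs in 1 cell. Cell cycle genes were lower in 5 of 8 cases, with Mki67 at -3.75 (-9.05 to -1.26) and Birc5 at -2.86, and neutrophil-like cells, whose removal turned the summed list of all 60 members from -0.73 to 0.18, belonged to the comparison.

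Interferon gamma response genes were carried by very few cells. Cxcl9, a chemokine for activated T cells, gave 251 UMIs in 2 of the 33 cells and 1 UMI in the comparison cells. The cell ranked 3 by class II UMIs held 102 Cxcl9, 177 Cxcl10, 24 Slamf7 and 19 Cd40 UMIs, no Ccr2 UMI, and was the 1 member in a cluster led by Cd40, Cxcl10 and Slamf7. The cell ranked 24 held 149 Cxcl9 and 3 Cxcl10 UMIs. Of the list, 4 of 10 genes at the minimum were at least 2-fold higher in the 33 cells, among them Gbp2 at 2.70 (2.27 to 3.1) in 7 cells. Cxcl9 stood at 12.7 CPM over all kept cells and 0.0597 CPM in comparison cells, so it passed the minimum only through class II cells. Over all 60 members the summed list was at 1.72 (1.62 to 1.82), and without the members holding Cxcl9 it was at -0.01. Gadd45b at 4.19, Gbp4 at 4.09 and Il1rn at 4.08 had 92.0%, 66.7% and 85.7% of their UMIs in 1 cell. Ifi203, at 4.09 (3.55 to 4.60), was spread over 15 of the 33 cells; it belongs to a family of similar genes whose reads may be shared.

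Neutrophil RNA was concentrated in 2 of the 33 cells, which held 1289 and 712 S100a8 UMIs along with 275 and 110 Lyz2 UMIs. Both also held Ccr2, with 4 and 2 UMIs, and the first lay in the neutrophil-like cluster. Among the 208 IRF8KO cells with the highest scores there was 1 member, with under 10 class II UMIs. The 10 lowest ratios among abundant genes ran from -1.01 (Ccl12) to -0.64 (Tmed7) in the 33 cells. In all 60 members they ran from -1.37 (Chil3) to -0.64 (Gpr84), and 7 of these 10 genes lay above 0 without neutrophil-like cells. When members with 100 or more neutrophil UMIs were left out too, Anxa1 (1.38), Chil3 (1.47) and Hmgb2 (0.065) stayed above 0. Camp, Ngp, S100a8 and S100a9 did not. Of the 60 IRF8KO members, 52 lay in 1 cluster of 2490 cells and 6 in another. That cluster was led by Runx3, Cxcl2 and Ms4a7 and had no class name.

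The 27 IRF8KO members with under 10 class II UMIs held these genes in fewer cells than the 33 did. Ccr2 had UMIs in 4 of the 27 cells, at 4.92 (4.22 to 5.58), and 44.4% of these UMIs were in 1 cell. H2-DMa was at 2.80 (1.89 to 3.59) in 7 cells, H2-DMb1 at -0.56, Lyz2 at 1.06 (0.93 to 1.19) and F13a1 at 1.43 (-0.03 to 2.59). At least 2 of Ccr2, Mgl2 and Ahnak were found in 3 of the 27. These 27 cells had a median of 4156 UMIs, below the 10482 of the 33 cells and above the 2894 of comparison cells. They held 216283 UMIs in all, against 478254 in the 33 cells, so the counting noise is larger. Of 8184 genes, 241 (2.94%) were at least 2-fold higher and 633 (7.73%) lower.

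WT class II cells were deeper than the comparison cells, with a median of 10998 UMIs against 3102 in comparison cells. Of 8467 genes at the minimum, 12 (0.142%) were at least 2-fold higher in the 36 members and 128 (1.51%) lower. These numbers became 160 and 452 with equal weight for each cell, and 164 and 794 with 3 of the 4 genes as the rule. In the summed counts of the 36 members, no gene of the dendritic cell, monocyte, B cell, border macrophage or microglia lists reached 2-fold among those at the minimum. With equal weight for each cell, Mrc1 was at 1.87. Of 3 border macrophage genes in the 7 high WT cells, Mrc1 was at 1.62 (3 UMIs) and Dab2 at -1.03 (1 UMI). Of 5 B cell genes there, Ralgps2 was at -1.14 (3 UMIs), and no other gene of these lists reached 2-fold. Over all 36 members the summed microglia list was at 0.06 (0.05 to 0.08), and at -0.083 with equal weight for each cell. Cx3cr1 was at 0.30 (0.25 to 0.34), Trem2 at 0.27 (0.20 to 0.34) and P2ry13 at -0.27 (-0.42 to -0.13). Sall1 had UMIs in 33 of the 36 cells and in all 7 high cells. Mgl2, Ahnak, F13a1, Cd163 and Ms4a7 had 0 UMIs in the 36 cells, and Ccr2 had 2.

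Several dendritic and B cell list genes were part of the general WT profile. Ighm was seen in 28 of 36 members and in 1616 of 2907 comparison cells, at 0.15 (-0.05 to 0.35). Batf3 was at 0.35 (-0.12 to 0.78), Naaa at -0.44 (-1.0 to 0.08) and Cd79b at 0.29 (-0.19 to 0.73). H2-DMa was likewise common, in 32 of 36 members and 1602 comparison cells, at 0.33 (0.13 to 0.53), and H2-DMb1 was at 0.29 (0.00 to 0.56). The ubiquitin ligase gene March1, which lowers surface class II, was at -0.39 (-0.63 to -0.15). H2-D1 was at 0.39 (0.24 to 0.54) and H2-K1 at 0.37 (0.19 to 0.54).

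The highest ratios in WT members rested on single cells or on low counts. Ccl5, a chemokine for T cells and monocytes, was at 5.57 (4.96 to 6.22), with 74 of its 85 UMIs in 1 cell. That cell, the highest WT cell by class II UMIs, also held all 35 Cxcl9 UMIs of the members, whose ratio was 4.60 (3.82 to 5.41). Mbp, a myelin gene, was at 1.55 (1.13 to 1.95), with 41.7% of its UMIs in 1 cell. The summed list of non-immune brain cell genes, which holds Mbp, was at 1.32 (0.95 to 1.67) in WT members, with 8 of 15 genes at 0. It was at 1.08 (0.52 to 1.59) in the 27 IRF8KO members with under 10 class II UMIs and at -0.02 (-0.57 to 0.49) in the 33 high cells, with 12 of 15 at 0 in both, and its part in the other results was not tested. The remaining 7 of the 10 highest ran from 1.03 (Mospd1) to 1.51 (Cc2d1a), and the 10 lowest from -0.82 (A830008E24Rik) to -0.56 (Pcm1). Apoe was at 0.77 (0.64 to 0.90) and Lyz2 at 0.65 (0.47 to 0.84). Malat1, a nuclear RNA, was at -0.82 (-0.85 to -0.80), beside the greater depth of the members. With comparison cells weighted to that depth Malat1 was at -0.47, and with equal weight for each cell at -0.42.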

How the data were processed

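The data were the deposited UMI counts, 1 matrix of genes by cell barcodes for each library, with whole numbers not normalised by the authors. Per the submitters' processing notes, bcl2fastq, Cell Ranger 3.1 and Scanpy were used with build mm10, and the software version is 3.1.0 per the file headers. The lowest deposited barcodes held 500 and 501 UMIs.

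Cells were kept with at least 1000 UMIs, 500 genes and at most 10% mitochondrial UMIs. UMIs were summed over class II cells and over comparison cells of the same library and scaled to CPM, and the log2 ratio of CPM was taken with exact conditional binomial 95% intervals. Shares have Clopper-Pearson intervals. A group at 0 was set to a floor of 3 counts. With 1 library per group, no test was run. Genes counted in lists or across the table had at least 10 CPM over the kept cells of the library, class II cells included. Thinning drew 2000 UMIs per cell. Clusters used 2000 variable genes, 30 components, 15 neighbours and Leiden resolution 0.5 (scanpy 1.11.5), on both libraries without batch correction; only a neutrophil-like cluster could be named. Scrublet called 1 WT and 5 IRF8KO doublets, too few for a working call, so cells were kept and an alternative left out the 87 and 208 cells with the highest scores. The interval code was tested on simulated data.

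Members and gene lists were chosen with earlier results of these data known. Named genes were the 3 largest absolute ratios per list and the 10 highest and lowest ratios (at least 20 UMIs in members, and 100 CPM in comparison cells); the text prints the ones that describe the cell classes and gives the others as ranges, with defining list markers added after their values were seen. Ifi30 was not analysed here, and some list genes are not reported here. Positions come from GENCODE M21 (GRCm38) and promoters from RefSeq.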

Additional observations from a re-analysis of the deposited data

Results flagged for a closer look

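Summed lists that lay above the comparison cells in WT members and below them in IRF8KO members stood out. The microglia list was at 0.065 on the log2 scale in WT and at -0.11 in the library labelled IRF8KO. It turned to -0.083 in WT with equal weight for each cell, and in the library labelled IRF8KO to 0.00065 with comparison cells weighted to the depth of members and to 0.013 within the cluster that holds most members. The disease-associated microglia list was at 0.15 and -0.13. Each is 1 value per library, and the difference between libraries was not tested. Among barcodes left out by the cell filter, 2 in the library labelled IRF8KO met the gene rule, both with 10 or more UMIs, and 0 in WT did.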

How the results depend on the processing

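The values below are those that changed direction, or moved by more than counting error or 1.5 times for a main value, with members against comparison cells in log2 units unless a count or share is named; other causes were not tested. With a UMI of 1 of the 4 genes as the rule, WT gave share of class II cells 12%. With a UMI of 1 of the 4 genes as the rule, IRF8KO gave share of class II cells 9.21%. With 3 of the 4 genes as the rule, which leaves fewer members, WT gave share of class II cells 0.272%, the summed B cell list -0.072, the median B cell list -0.42, the summed border macrophage list -0.54, the median border macrophage list -0.59, the summed microglia list 0.18, genes 2-fold higher 164, genes 2-fold lower 794 and -0.202 for Fig4. With 3 of the 4 genes as the rule, which leaves fewer members, IRF8KO gave share of class II cells 0.744%, the median dendritic cell list -0.42, the summed monocyte list 0.28, genes 2-fold lower 248 and Lpl -0.89. With comparison cells weighted to the depth of members, IRF8KO gave the summed monocyte list -1.07, the median monocyte list -2.13, the summed microglia list 0.00065 and the summed class II pathway list 0.15. With equal weight for each cell, WT gave the median border macrophage list 0.82, the summed microglia list -0.083, genes 2-fold higher 160, genes 2-fold lower 452 and Ranbp2 0.17. With equal weight for each cell, IRF8KO gave the summed monocyte list 0.85, the summed microglia list -0.32, genes 2-fold higher 168 and genes 2-fold lower 426. Without the 10 CPM minimum, WT gave the median dendritic cell list 0.796 and the median border macrophage list 1.5. Without the 10 CPM minimum, IRF8KO gave the median dendritic cell list 3.54, the median monocyte list 0.17 and the median B cell list 0.79. In the medians without a minimum, genes at 0 in members stand at the floor of 3 counts, which can lift the median. Of 18 dendritic cell genes, 7 were at 0 in the 60 IRF8KO members and 11 in the 36 WT members, so these medians do not give levels. Thinned to 2000 UMIs a cell, WT gave share of class II cells 0.199% and share of high class II cells 0.0662%. Thinned to 2000 UMIs a cell, IRF8KO gave share of high class II cells 0.391%. Within the cluster that holds most members, IRF8KO gave the summed monocyte list 1.59, the median monocyte list 5.47, the summed border macrophage list 0.038, the summed microglia list 0.013, the summed neutrophil list 6.02, the summed cell cycle list 0.078, Anxa1 2.09, Camp 6.38, Chil3 5.6, Crybb1 0.28, Fscn1 0.014, Hmgb2 0.16, Hp 5.47, Ngp 6.58, S100a8 6.06 and S100a9 6.16. Without the high class II cells, IRF8KO gave the summed monocyte list -1.0, the summed B cell list -0.16, the summed class II pathway list 0.049, genes 2-fold higher 241, genes 2-fold lower 633, Cxcl10 -2.58, H2-DMb1 -0.56 and Lgals3 -0.74. Without members holding Cxcl9, IRF8KO gave the summed interferon gamma response list -0.014, Cxcl10 -4.21, Gbp2 -0.22, Ifit2 -0.12 and Rsad2 -0.15. Without neutrophil-like cells, IRF8KO gave the summed monocyte list 1.66, the median monocyte list 5.34, the summed microglia list -0.15, the summed neutrophil list 5.9, the summed cell cycle list 0.18, Anxa1 2.41, Camp 6.21, Chil3 5.34, Hmgb2 0.26, Hp 6.16, Ngp 6.31, S100a8 5.95 and S100a9 5.96. Also without the members with 100 or more neutrophil UMIs, IRF8KO gave the summed monocyte list 1.53, the median monocyte list 3.85, the summed microglia list -0.16, the summed cell cycle list 0.14, Anxa1 1.38, Chil3 1.47, Hmgb2 0.065, Hp 6.23 and Pclaf 0.057. Hp had 0 UMIs in the 27 members with under 10 class II UMIs, and its values without neutrophil-like cells rest on very low counts. The 3 settings that select cells by Cxcl9 UMIs, by neutrophil UMIs or by cluster were chosen after seeing the data. No paired analysis was possible because each group is 1 library, and for the same reason no replicate could be left out.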
